A study of Mus musculus with 16 samples.

Results

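The 10 genes described here serve protein folding in the endoplasmic reticulum and the unfolded-protein response, and were followed in retinal microglia over the week after optic nerve crush. They were chosen by name (Hspa5, Hsp90b1, Manf, Pdia3, Pdia4, Pdia6, Sdf2l1, Dnajb11, Calr and Xbp1) and are 10 of the 55385 genes in the deposited table. Each has 1 row there, and all 10 passed the filter on low values. The RNA came in bulk from cells labelled microglia that were sorted from retinas of Iba1-EGFP mice, a strain whose EGFP is driven by the Iba1 (Aif1) promoter, which other macrophages use too. The groups were day 0 without treatment (age 15 weeks), days 2 and 4 after the crush (age 13 weeks) and day 7 after the crush (age 16 weeks), with 4 libraries each and 16 in all. All 4 groups carry the reporter, and no sham operation is among them. Age and time after crush cannot be told apart, except between days 2 and 4. Day 2 replicates 3 and 4 have the title prefix F and all other libraries M, letters that the labels do not explain. Nothing in the labels ties the 4 libraries of a day to separate animals. The p-values therefore measure only how these libraries vary, which may be technical.

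The endoplasmic reticulum folds and checks proteins bound for membranes and secretion. When unfolded proteins build up there, the sensors IRE1 (Ern1), ATF6 and PERK (Eif2ak3) start the unfolded-protein response, in which IRE1 splices Xbp1 mRNA and the transcription factors XBP1, ATF6 and ATF4 raise the genes of chaperones, folding enzymes, degradation and transport. Microglia, the resident macrophages of the retina, secrete cytokines and renew surface receptors through this compartment.

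The 16 libraries held 8647276 to 15708302 reads, recovered from the steps of the deposited FPKM, so that 1 read added 0.0637 to 0.1156 FPKM to a gene of 1 kb. Replicates 1 and 2 of every day share the first 4 digits of the code in their titles, and so do replicates 3 and 4. They are called batch 1 and batch 2, a reading of the titles that no label states. All 14 microglia markers were found, among them Aif1 at 130.0 to 961 FPKM, P2ry12 at 150.1 to 1223 FPKM and Cx3cr1 at 113 to 441 FPKM. A pair of libraries stood apart. Day 0 replicate 1 had the lowest sum of microglia markers (3556 FPKM, against 7035 to 14289 in the others), the most genes at 1 FPKM or more (16522), and 439 FPKM of endothelial and pericyte markers, against at most 135 in the others. Day 7 replicate 4 had the fewest genes at 1 FPKM or more (9315).

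Many genes of this response carry the ER stress response element (ERSE) upstream of their start, which is CCAAT, 9 bases of any kind and CCACG, or the shorter ERSE-II, which is ATTGG, 1 base of any kind and CCACG. These elements are known from studies of human and mouse promoters as sites where ATF6, with NF-Y, and XBP1 bind. Exact copies were searched on both strands of the RefSeq promoters (GRCm38.p6, 250 bases before to 50 after the start), a table that holds 9 of the 10 genes. The windows with a match are shown because they are the sequence that members of this group have in common, in the direction of the gene and with the 2 outer parts of the element in capitals. On the opposite strand the element reads as CGTGG, 9 bases and ATTGG. They lie on the plus strand at chr2:34772005-34772063 (Hspa5), chr12:17266471-17266529 (Pdia6) and chr16:22857852-22857862 (Dnajb11), and on the minus strand at chr10:86705618-86705676 and chr10:86705513-86705571 (Hsp90b1) and chr8:84847055-84847113 (Calr).
Hspa5: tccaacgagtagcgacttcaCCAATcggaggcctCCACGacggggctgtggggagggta
Hsp90b1 (far): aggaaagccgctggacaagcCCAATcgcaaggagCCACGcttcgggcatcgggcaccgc
Hsp90b1 (near, opposite strand): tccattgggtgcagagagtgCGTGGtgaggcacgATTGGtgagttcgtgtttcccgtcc
Pdia6: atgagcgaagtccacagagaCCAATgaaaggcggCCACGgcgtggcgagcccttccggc
Calr (opposite strand): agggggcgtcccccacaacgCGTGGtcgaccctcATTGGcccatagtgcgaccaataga
Dnajb11 (ERSE-II): ATTGGcCCACG

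An exact ERSE was found in 4 of the 9 promoters, with 5 matches in all. It began at base -65 in Hspa5, at -212 and -107 in Hsp90b1, at -98 in Pdia6 and at -162 in Calr, counted from the RefSeq start, and the ERSE-II of Dnajb11 began at base 8. Of the 27025 genes in the promoter table, 37 (0.137%) held an exact ERSE and 12 (0.0444%) an ERSE-II. The core of the UPR element, TGACGTGG, was in 193 genes (0.714%) and in none of the 9. Among 108 other genes of the pathway with an entry, 6 held an ERSE: Canx, Creld2, Dnajc3, Ero1b, Derl3 and Syvn1. The promoters of Pdia3, Pdia4, Sdf2l1 and Xbp1 held none of the 3 motifs, which says only that these letters are not in these windows. The match is a description and was not set against the expression values by any test. Since genes of this response are known to carry the element, its share among the members is no independent finding.

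**Figure D1:**
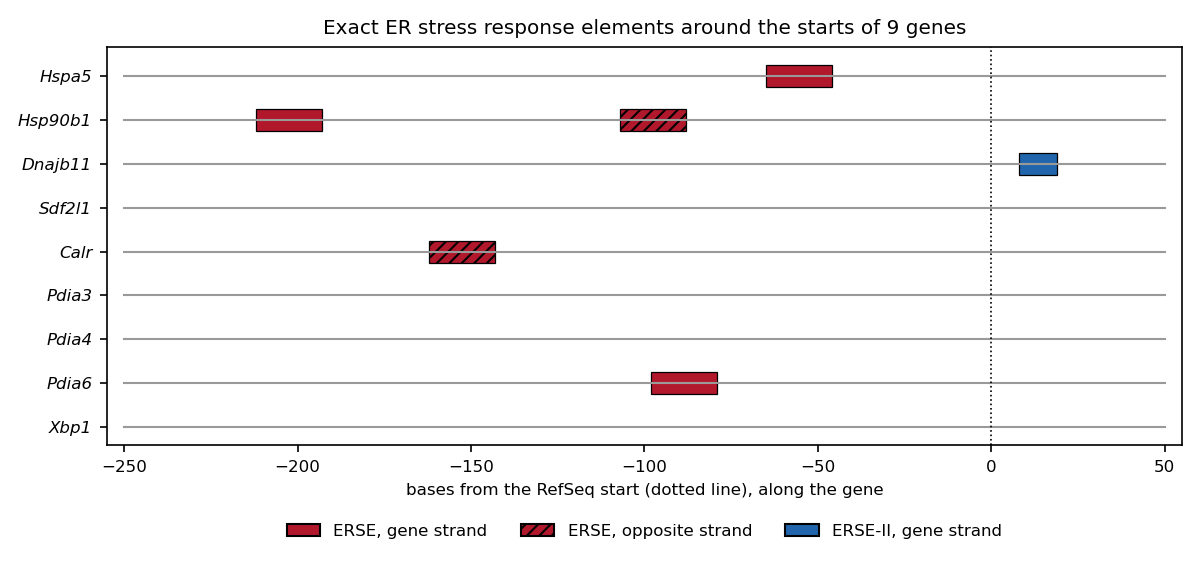
Exact ER stress response elements in the promoters of 9 of the 10 genes. The horizontal axis is the distance in bases from the RefSeq start, and boxes mark ERSE on the gene strand, ERSE on the opposite strand (hatched) and ERSE-II (blue). In all, 5 genes hold a match, and the 5 ERSE matches begin between base -212 and base -65.

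Day 4 after the crush stood out. The 10 genes together took 0.299 ± 0.0475% of the reads of a library on day 0, 0.3005 ± 0.0647% on day 2, 0.543 ± 0.108% on day 4 and 0.215 ± 0.0693% on day 7 (SD, n = 4 each). The day 4 libraries held 0.418% to 0.682%, and no library of another day was above 0.372%. These shares were not rescaled. Median-of-ratios factors, which scale each library by its median gene, were 1.27 to 1.39 on day 4 and 0.81 to 1.16 on the other days. Division by them lowers the day 4 levels most, and whether the shares then stay apart was not tested. Of the members, 5 rose on day 4 against day 0, as did 4.62% of all genes tested (limma, adjusted p under 0.05), and 6 fell on day 7 against day 4, as did 1.5% of all genes. FPKM scales the reads of a gene by its length and by the depth of the library. Changes are differences of log2(FPKM + 1) with their SE, fitted with limma over all 16 libraries with the batch as a term, and adjusted p are Benjamini-Hochberg values over the 14795 genes that passed the filter (1 FPKM or more in 4 or more libraries). In bulk RNA of sorted cells, fewer cells of a type and less RNA per cell cannot be told apart.

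**Figure D2:**
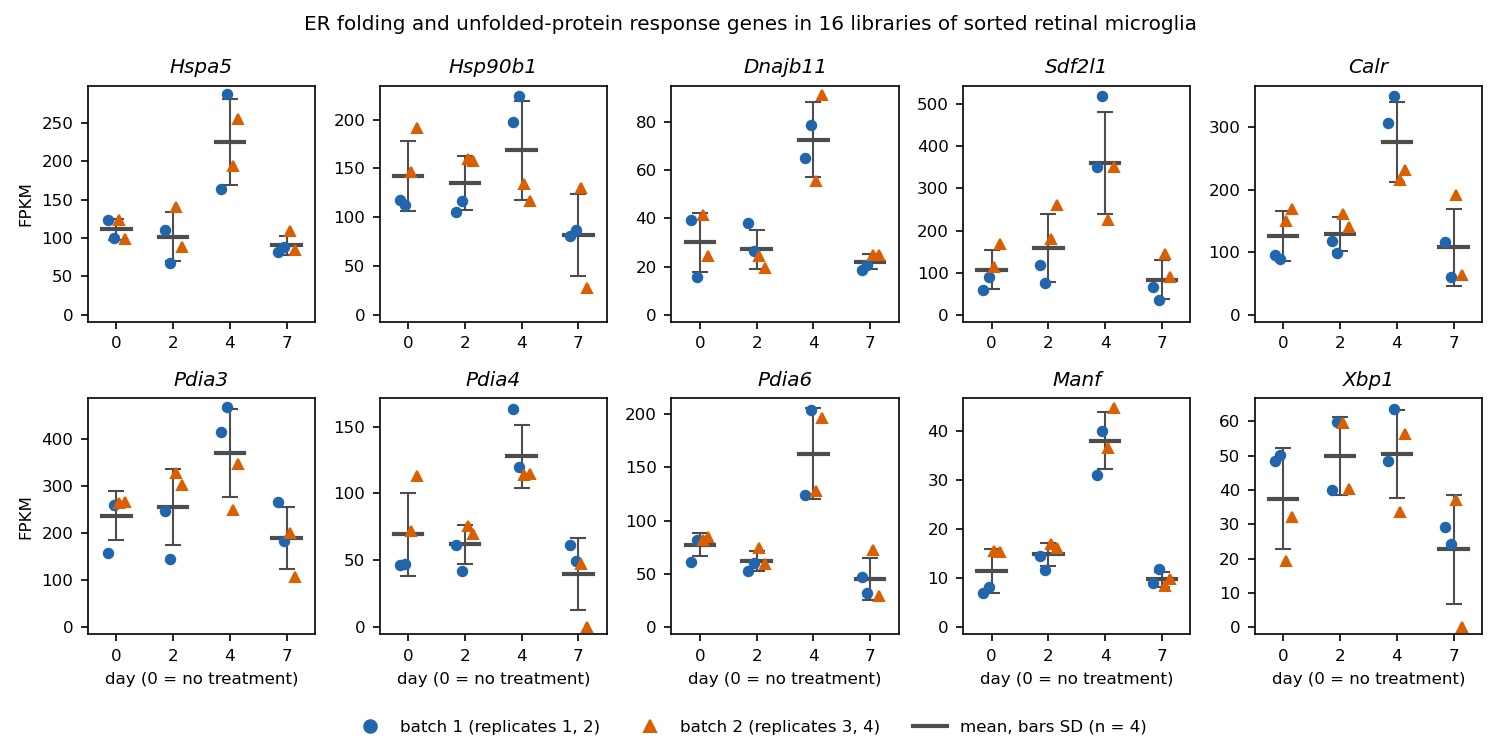
Level of each gene in FPKM (vertical axis, from 0) in the 16 libraries by day (horizontal axis, 0 is no treatment), with circles for batch 1, triangles for batch 2, and the mean and SD of 4 libraries. The day 4 libraries of Hspa5, Dnajb11, Sdf2l1, Calr, Pdia4, Pdia6 and Manf all lie above the day 0 ones, while those of Hsp90b1, Pdia3 and Xbp1 overlap them.

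Hspa5 (ENSMUSG00000026864.13, chr2:34771970-34777547, plus strand) encodes BiP, the Hsp70 of the endoplasmic reticulum, which also holds the sensors inactive. In replicates 1 to 4 it was at 123, 99.7, 123 and 99.2 FPKM on day 0, at 111, 66.9, 141 and 88.2 on day 2, at 164, 287, 193 and 255 on day 4, and at 81.4, 88.6, 109 and 84.4 on day 7. All 4 day 4 libraries lay above every library of the other days, which overlapped each other. Hspa5 averaged 225 ± 56.1 FPKM on day 4 and 111 ± 13.7 FPKM on day 0 (SD, n = 4 each), and rose by 0.98 ± 0.25 (log2 ± SE, limma, adjusted p = 0.0344). On day 7 it averaged 90.8 ± 12.3 FPKM and had fallen by 1.27 ± 0.25 against day 4 (adjusted p = 0.0205). Without day 0 replicate 2, 3 or 4, or without day 4 replicate 2 or 4, the rise kept its direction but not its call (0.81 to 1.01, adjusted p = 0.059 to 0.126). The fall lost its call without day 4 replicate 2 or 4 or day 7 replicate 2 (adjusted p = 0.0642 to 0.0922).

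Dnajb11 (ENSMUSG00000004460.17, chr16:22857845-22879634, plus strand) encodes ERdj3, a co-chaperone that hands unfolded proteins to BiP. Its levels were 39.2, 15.5, 41.2 and 24.4 FPKM on day 0, 38.1, 26.5, 24.3 and 19.5 on day 2, 64.9, 78.4, 55.6 and 90.9 on day 4, and 18.4, 20.5, 24.6 and 24.8 on day 7. The lowest day 4 library, at 55.6 FPKM, was above the highest of any other day. It averaged 72.4 ± 15.5 FPKM on day 4 and 30.1 ± 12.3 FPKM on day 0 (SD, n = 4 each) and rose by 1.31 ± 0.33 (adjusted p = 0.0327). Against day 4 it fell by 1.66 ± 0.33 on day 7 (adjusted p = 0.0226), to 22.1 ± 3.16 FPKM. The rise lost its call without day 0 replicate 2 or 4 or day 4 replicate 1, 2 or 4 (1.02 to 1.36, adjusted p = 0.0745 to 0.103), and the fall without day 4 replicate 1, 2 or 4 or day 7 replicate 2 (adjusted p = 0.0663 to 0.0922).

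Sdf2l1 (ENSMUSG00000022769.9, chr16:17130138-17132383, minus strand), a partner of ERdj3 in the BiP cycle, had the largest rise of the 10 on day 4. It was at 59.8, 88.9, 113 and 168 FPKM on day 0, at 118, 74.8, 180.4 and 261 on day 2, at 350.2, 518, 224 and 351 on day 4, and at 65.7, 34.2, 144 and 89.0 on day 7. The day 4 libraries were above all of days 0 and 7, but the lowest of them was below the highest of day 2. The means were 361 ± 121 FPKM on day 4 and 107 ± 46.0 FPKM on day 0 (SD, n = 4 each), with a rise of 1.78 ± 0.40 (adjusted p = 0.0192). On day 7, at 83.1 ± 46.1 FPKM, it had fallen by 2.22 ± 0.40 against day 4 (adjusted p = 0.0127). Without day 0 replicate 1 or day 4 replicate 1 or 2 the rise missed the threshold (1.44 to 1.64, adjusted p = 0.0535 to 0.0736), and so did the fall without day 4 replicate 1 or 2 or day 7 replicate 2 (adjusted p = 0.0527 to 0.0558).

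Hsp90b1 (ENSMUSG00000020048.13, chr10:86690209-86705509, minus strand) encodes GRP94, the Hsp90 of the endoplasmic reticulum, which folds Toll-like receptors and integrins. Its promoter holds 2 ERSE, and its levels overlapped on days 0, 2 and 4. They were 118, 113, 147 and 191 FPKM on day 0, 106, 116, 159 and 157 on day 2, 198, 225, 135 and 117 on day 4, and 80.6, 87.2, 130.2 and 27.7 on day 7. The change was 0.23 ± 0.39 on day 4 against day 0 (adjusted p = 0.79), 0.87 in batch 1 and -0.41 in batch 2. On day 7 against day 4 it was -1.18 ± 0.39 (adjusted p = 0.145), and -0.71 (adjusted p = 0.265) without day 7 replicate 4. Of its exon bases, 15.7% are shared with other genes and 10.3% with 1810014B01Rik on the opposite strand, whose reads the library kit cannot separate.

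Calr (ENSMUSG00000003814.8, chr8:84841850-84846934, minus strand) encodes calreticulin, the calcium-binding lectin chaperone of glycoproteins. It was at 96.3, 88.5, 149.9 and 169.7 FPKM on day 0, at 119, 98.5, 161 and 140.1 on day 2, at 306, 350.3, 216 and 231 on day 4, and at 117, 59.7, 192 and 63.8 on day 7. All 4 day 4 libraries were above those of every other day. The change on day 4 against day 0 was 1.15 ± 0.34 and missed the threshold (adjusted p = 0.0662), with means of 276 ± 63.6 FPKM on day 4 and 126 ± 39.8 FPKM on day 0 (SD, n = 4 each). It passed without day 7 replicate 3 or 4 (adjusted p = 0.0395 and 0.0413). Calr fell by 1.48 ± 0.34 on day 7 against day 4 (adjusted p = 0.0426), a call that was lost in 12 of the 16 fits with 1 library left out (adjusted p = 0.0504 to 0.154) and kept in the 4 without day 0 replicate 1 or 4 or day 7 replicate 1 or 3.

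The 3 protein disulfide isomerases of the group form and rearrange disulfide bonds. Pdia6 (ENSMUSG00000020571.12, chr12:17266545-17284770, plus strand), which also binds the sensors IRE1 and PERK, was at 61.2, 81.9, 81.6 and 85.0 FPKM on day 0, at 53.0, 60.5, 74.8 and 59.2 on day 2, at 124, 203, 128 and 196 on day 4, and at 46.7, 32.2, 72.8 and 29.5 on day 7. No library of another day reached the lowest of day 4. It averaged 163 ± 42.9 FPKM on day 4 and 77.4 ± 10.9 FPKM on day 0 (SD, n = 4 each) and rose by 1.04 ± 0.29 (adjusted p = 0.0494). This call was just inside the threshold and was kept in only 2 of the 16 fits with 1 library left out, those without day 7 replicate 3 or 4. In the other 14 fits the change was 0.87 to 1.18 (adjusted p = 0.0533 to 0.158). The fall on day 7 against day 4, of 1.88 ± 0.29 (adjusted p = 0.00614), was kept in all 16, with adjusted p of 0.0029 to 0.0341.

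Pdia4 (ENSMUSG00000025823.9, chr6:47796141-47813430, minus strand), a large member of the family that works with BiP, was at 46.4, 47.3, 71.9 and 113 FPKM on day 0, at 61.5, 41.8, 75.5 and 69.6 on day 2, at 163, 119.5, 114 and 115 on day 4, and at 61.6, 49.5, 47.0 and 0.127 on day 7. The last value, of replicate 4, rests on 3 reads, against 1149 to 1594 reads in the other day 7 libraries. All 4 day 4 libraries lay above every other day, though the lowest (114 FPKM) barely exceeded the highest of day 0 (113 FPKM). The change against day 0, 0.95 ± 0.92, did not pass (limma, adjusted p = 0.608, and 0.0623 without day 7 replicate 4). Without day 7 replicate 4 the change on day 7 against day 4 was -1.21 (adjusted p = 0.0724), and with it -2.65 ± 0.92 (adjusted p = 0.164).

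Pdia3 (ENSMUSG00000027248.13, chr2:121413775-121438687, plus strand) encodes ERp57, the partner of calreticulin and calnexin and a part of the MHC class I loading complex. Its levels were 158, 259.9, 264 and 266 FPKM on day 0, 247, 144, 326 and 302 on day 2, 414, 468, 249.5 and 346 on day 4, and 266, 183, 199 and 107 on day 7. Of the 4 day 4 libraries, 3 were above all of day 0. The change was 0.63 ± 0.33 on day 4 against day 0 (adjusted p = 0.295), 1.12 in batch 1 and 0.15 in batch 2, and -0.997 ± 0.33 on day 7 against day 4 (adjusted p = 0.142).

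Manf (ENSMUSG00000032575.16, chr9:106838312-106891979, minus strand) encodes a small secreted protein of the endoplasmic reticulum that binds BiP and is known as a neurotrophic factor, also in the retina. It was at 7.01, 8.12, 15.4 and 15.3 FPKM on day 0, at 14.5, 11.6, 17.0 and 16.2 on day 2, at 30.9, 39.9, 36.5 and 44.7 on day 4, and at 9.09, 11.9, 8.30 and 9.72 on day 7. No day 4 library was near those of another day, the highest of which was 17.0 FPKM. It averaged 38.0 ± 5.80 FPKM on day 4 and 11.5 ± 4.53 FPKM on day 0 (SD, n = 4 each). It rose by 1.71 ± 0.29 on day 4 against day 0 (adjusted p = 0.00554) and fell by 1.86 ± 0.29 on day 7 against day 4 (adjusted p = 0.00636), to 9.75 ± 1.54 FPKM. Both calls were kept in all 16 fits with 1 library left out, with changes of 1.56 to 1.82 and of -2.01 to -1.73. Other genes share 9.25% of the exon bases of Manf.

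Xbp1 (ENSMUSG00000020484.19, chr11:5520659-5525893, plus strand) encodes the transcription factor that IRE1 makes active by splicing its mRNA, and a value per gene does not separate the spliced from the unspliced form. Its levels were 48.5, 50.1, 19.2 and 32.0 FPKM on day 0, 40.1, 59.8, 59.5 and 40.2 on day 2, 48.5, 63.5, 33.4 and 56.4 on day 4, and 29.2, 24.4, 37.0 and 0.0625 on day 7. Days 0, 2 and 4 overlapped. The change was 0.48 ± 0.78 on day 4 against day 0 (adjusted p = 0.779), 0.17 in batch 1 and 0.78 in batch 2. The lowest value, in day 7 replicate 4, rests on 2 reads. On day 7 against day 4 the change was -1.92 ± 0.78 (adjusted p = 0.233) with that library and -0.75 (adjusted p = 0.328) without it.

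Set against all 14795 genes tested, the day 4 comparison with day 0 called 5 of the 10 higher (Manf, Sdf2l1, Dnajb11, Hspa5 and Pdia6) and none lower, where 4.62% of all genes were called higher and 5.34% in either direction. In 7 of the 10 the day 4 libraries all lay above the day 0 ones, which was so for 12.6% of all genes. Both were read from the deposited FPKM and not from values divided by the median-of-ratios factors. Those factors were higher in every day 4 library (1.27 or more) than in any other (1.16 or less), so this separation depends on the scaling. The changes ran from 0.23 (Hsp90b1) to 1.78 (Sdf2l1), with a median of 1.01, against 0.16 over all genes. Most calls of this comparison were rises, 684 against 106 falls. With median-of-ratios factors in place of the deposited scaling there were 154 rises and 118 falls, and the median over all genes was -0.17. The median of the members was then 0.54, of which Manf alone kept its call (1.25, adjusted p = 0.0471).

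The count of 5 also moved with the libraries and with other settings. Leaving out day 0 replicate 1 or 3 gave 3, leaving out day 0 replicate 2 or 4 or day 4 replicate 1 or 4 gave 2, and leaving out day 4 replicate 2 gave 1. No member was called when the mean levels of bipolar and of Mueller glia markers were added as covariates, a fit in which no gene at all was called and the median of the members was 1.26.

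In day 7 against day 4, which uses the same day 4 libraries, 6 of the 10 were called lower (Pdia6, Manf, Sdf2l1, Hspa5, Dnajb11 and Calr), where 1.5% of all genes were called lower and 1.63% in either direction. The libraries did not overlap in 7 of the 10, against 8.66% of all genes. The changes ran from -2.65 (Pdia4) to -0.997 (Pdia3), with a median of -1.76, against -0.25 over all genes. With median-of-ratios factors the medians were -1.32 and 0.05, and Pdia6 kept its call (-1.43, adjusted p = 0.0479). Leaving out day 4 replicate 1 or 4 gave a count of 3, and leaving out day 4 replicate 2 or day 7 replicate 2 gave 2. Calls over all genes, 222 falls and 19 rises, became 42 falls and 32 rises with the median-of-ratios factors.

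**Figure D3:**
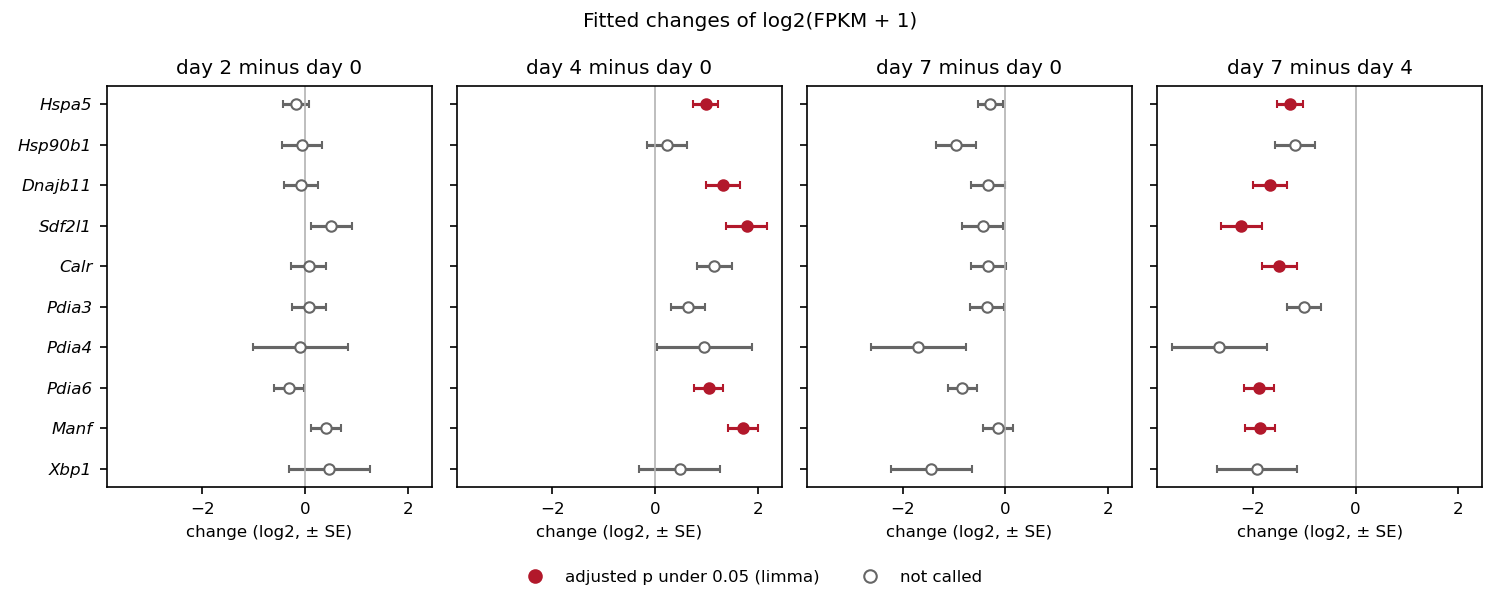
Fitted change of each gene on the log2(FPKM + 1) scale (horizontal axis) with its SE in 4 comparisons. Filled points passed an adjusted p of 0.05 (limma), which 5 genes did on day 4 against day 0, 6 on day 7 against day 4, and none on days 2 and 7 against day 0.

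Day 4 against day 2 compares mice of the same age, but day 2 replicates 3 and 4 have the title prefix F and every day 4 library M. The 2 days also share no whole 6-digit title code, so day and code cannot be told apart within these libraries. All 10 changes were positive, from 0.00 (Xbp1) to 1.40 (Dnajb11), and the median was 1.12, against 0.16 over all genes. None passed the test (limma), where 0.453% of all genes did, while 6 had an unadjusted p below 0.05. The lowest adjusted p were 0.0543 for Pdia6 (1.35 ± 0.29), 0.0595 for Hspa5 (1.15 ± 0.25) and 0.0684 for Manf (1.30 ± 0.29). Libraries did not overlap in 6 of the 10 (Hspa5, Manf, Pdia4, Pdia6, Dnajb11 and Calr), against 7.83% of all genes. Pdia6 passed without day 7 replicate 3 or 4 (adjusted p = 0.0359 and 0.0327). With genes of at least 5 FPKM on average 4 members passed, and with limma voom on recovered reads, a setting added after seeing the data, 3 did. In batch 2 alone 7 of the changes were positive and 3 negative, with a median of 0.61. Without both libraries of prefix F all 10 were positive, with a median of 1.26. With the whole 6-digit code as the batch, a fit that draws on the other days, all 10 were positive too, with a median of 1.19.

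On day 2 against day 0 no member was called (limma, 0.311% of all genes were), none had an unadjusted p below 0.05, and the changes ran from -0.32 (Pdia6) to 0.51 (Sdf2l1). On day 7 against day 0 no member was called either (0.406% of all genes were), and 2, Pdia6 and Hsp90b1, had an unadjusted p below 0.05. All 10 changes on day 7 were negative, from -1.70 (Pdia4) to -0.15 (Manf), with a median of -0.40, against -0.07 over all genes. The median was -0.27 without day 7 replicate 4 and -0.66 without day 7 replicate 3. Days 0 and 7 share no whole 6-digit title code, and with that code as the batch the median was -0.23, with 7 changes negative and 3 positive. For Pdia4, Xbp1 and Hsp90b1 the changes were -1.70, -1.44 and -0.96 with day 7 replicate 4 and -0.26, -0.27 and -0.48 without it. The F test over the 4 days, which uses all these libraries at once, called 5 of the 10 and 2.89% of all genes. The adjusted p was 0.00877 for Manf, 0.0124 for Pdia6, 0.0246 for Sdf2l1, 0.0293 for Hspa5 and 0.0337 for Dnajb11. Leaving out day 4 replicate 1 gave 2, leaving out day 4 replicate 2 gave 0, and leaving out day 4 replicate 3 or 4 or day 7 replicate 2 gave 3.

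Within the batches, the day 4 changes of the called members were all positive. In batch 1 and batch 2 they were 0.961 and 0.9993 for Hspa5, 2.08 and 1.34 for Manf, 1.15 and 0.92 for Pdia6, 1.49 and 1.14 for Dnajb11, and 2.53 and 1.02 for Sdf2l1. Those of Calr were 1.82 and 0.48, and those of Pdia4 1.55 and 0.34. No member's change was called different between the batches in a limma fit with an interaction (adjusted p of 0.37 or more in each comparison). Of all genes, 1 was so called on day 4 against day 0. With 2 libraries per day and batch this fit could miss large differences, so it does not show that the batches are alike. Fitted alone, batch 1 called 2 members on day 4 against day 0, and batch 2 called none of all genes.

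The order of the levels, which FPKM allows since it is per length, began with Pdia3 on every day. On day 0 Pdia3 (237 ± 52.8 FPKM) was followed by Hsp90b1 (142 ± 35.9), Calr (126 ± 39.8), Hspa5 (111 ± 13.7), Sdf2l1 (107 ± 46.0), Pdia6 (77.4 ± 10.9), Pdia4 (69.6 ± 31.1), Xbp1 (37.5 ± 14.7), Dnajb11 (30.1 ± 12.3) and Manf (11.5 ± 4.53; SD, n = 4 each). On day 4 Sdf2l1 came next to Pdia3 (361 ± 121 and 369 ± 94.1 FPKM), Calr and Hspa5 stood above Hsp90b1 (169 ± 51.0), and Dnajb11 above Xbp1 (72.4 ± 15.5 and 50.4 ± 12.9). Most neighbours in this order were not separated: the ranges of 4 libraries overlapped in 8, 7, 8 and 8 of the 9 neighbouring pairs on days 0, 2, 4 and 7. Manf lay apart from Dnajb11 on days 0, 2 and 7, Dnajb11 from Xbp1 on day 2, and on day 4 Dnajb11 from Pdia4.

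The 10 genes varied together across libraries, as a description. Over the 45 pairs Pearson's r of log2(FPKM + 1) had a median of 0.71 and ran from 0.23 (Dnajb11 with Xbp1) to 0.90 (Sdf2l1 with Calr). The 16 points share the libraries, their depth and the days. Against the mean of the other 9, Pdia6 (r = 0.92) and Calr (r = 0.91) were closest and Xbp1 was farthest (r = 0.59). Among the other genes with at least 5 FPKM on average, the 10 most like the mean of the members over the 16 libraries were Hnrnpab (r = 0.96), Phykpl, Hnrnpa2b1, Gm5913, Gm7729, Gm9531, Apex1, Snrpd3, Rfc4 and Cct6a (r = 0.89). Hnrnpab and Hnrnpa2b1 bind pre-mRNA, Snrpd3 is a core protein of the spliceosome, Rfc4 loads the replication clamp, Apex1 repairs DNA and Cct6a is a subunit of the cytosolic chaperonin. Hnrnpab averaged 63.0, 71.6, 169.9 and 33.5 FPKM on days 0, 2, 4 and 7, and Cct6a 57.9, 58.1, 175 and 40.7 FPKM. Gm5913, Gm7729 and Gm9531 are pseudogenes, whose reads the counting may have split with other copies. Genes on the opposite strand share 29.1% of the exon bases of Hnrnpab (Phykpl) and 61.7% of those of Apex1 (Pip4p1), so their reads cannot be told apart.

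Other genes of the pathway were followed in 7 lists, with cytosolic and mitochondrial chaperones as a list for comparison, all chosen with earlier results of these data known. On day 4 against day 0, 5 of the 123 tested genes of the 7 lists rose (4.07%, against 4.62% of all genes) and none fell. This share is no higher than that of all genes, so the genes named from them are single genes and not a result about their lists. Among 30 tested other chaperones and folding enzymes it was Erp29, a disulfide isomerase relative, with 29.7, 48.7, 33.3 and 20.1 FPKM on day 4 and 6.44, 4.46, 13.7 and 7.37 FPKM on day 0 (1.95 ± 0.48, adjusted p = 0.0316). Exons of other genes, mainly Naa25 on the opposite strand, share 26.4% of its exon bases, and the call was lost without day 0 replicate 1, 2 or 4 or day 4 replicate 1, 2 or 3. Among 10 genes of the PERK and ATF4 branch it was Eif2s1, the eIF2α subunit that PERK phosphorylates, with 64.7, 93.2, 66.7 and 93.8 FPKM on day 4 and 19.3, 0.526, 18.7 and 9.76 FPKM on day 0 (3.14 ± 0.66, adjusted p = 0.0135, and 0.0519 without day 4 replicate 2).

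Of 23 genes of the translocon, signal peptidase and signal recognition, the translocon-associated Ssr2 rose by 1.22 ± 0.32 (adjusted p = 0.042). Of 11 genes of the oligosaccharyltransferase, the subunit Krtcap2 rose by 1.23 ± 0.27 (adjusted p = 0.0168), with 123, 114, 125 and 121 FPKM on day 4 and 36.3, 50.5, 70.4 and 52.7 FPKM on day 0. Of 19 genes of retrieval and COPII export, the cargo receptor Tmed2 rose by 0.85 ± 0.21 (adjusted p = 0.0327). Exons on the opposite strand share 12.8% of the exon bases of Ssr2, 15.7% of those of Krtcap2 and 7.60% of those of Hspe1. The day 4 libraries were all above the day 0 ones in 6 of the 23 and 5 of the 11. The medians of these 2 lists were 0.62 and 0.47. Of all genes, 12.6% had no such overlap. That held for 2 of 30 other chaperones and folding enzymes and for 2 of 21 genes of ER-associated degradation. Among 9 sensors, proteases and transcription factors it held for 0, and in the PERK and ATF4 branch for 2 of 10. For retrieval and COPII export it was 3 of 19, and for the comparison list 3 of 14. Whether any list differed from all genes in this share was not tested. In the comparison list of 14 cytosolic and mitochondrial chaperones, the mitochondrial Hspe1 rose by 1.63 ± 0.35 (adjusted p = 0.0147), and the median was 0.74. Calls were lost for Ssr2 in 11 of the 16 fits with 1 library left out (adjusted p up to 0.136), for Krtcap2 without day 4 replicate 1 or 2 (up to 0.0584), for Tmed2 without day 0 replicate 1, 2 or 3 or day 4 replicate 1, 2 or 3 (up to 0.0959) and for Hspe1 without day 4 replicate 2 (0.055). With median-of-ratios factors none of the 6 rises, of Erp29, Eif2s1, Ssr2, Krtcap2, Tmed2 and Hspe1, kept its call.

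None of 21 genes of ER-associated degradation and none of 9 sensors, proteases and transcription factors was called on day 4 (limma), with medians of 0.19 and -0.19, and with 5.34% of all genes called in either direction these lists are too short for a count of 0 to set them apart. Herpud1, which serves degradation, was at 39.6, 52.0, 87.2 and 51.9 FPKM on day 4 and at 45.6, 53.9, 49.1 and 48.1 FPKM on day 0 (0.17 ± 0.50, adjusted p = 0.881). Dnajb9, known as a target of XBP1, was at 22.5, 11.1, 21.5 and 15.3 FPKM on day 4 and at 26.6, 62.0, 16.4 and 44.97 FPKM on day 0 (-0.94 ± 0.51, adjusted p = 0.325). Dnajc3, another target of XBP1, changed by -0.08 ± 0.67 (adjusted p = 0.959).

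Creld2, a target of ATF6 with an ERSE, did not pass although its libraries were apart. It was at 85.8, 129.8, 131 and 108 FPKM on day 4 and at 22.4, 10.7, 51.9 and 50.7 FPKM on day 0 (1.94 ± 0.62, adjusted p = 0.0854). P4hb, the main disulfide isomerase, averaged 213 ± 31.6 FPKM on day 4 and 126 ± 73.8 FPKM on day 0 (0.95 ± 0.45, adjusted p = 0.245). Hyou1, an exchange factor of BiP, was below 6 FPKM in all 16 libraries (0.33 ± 0.67, adjusted p = 0.819).

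The sensors were low. Atf6 ran from 1.21 to 7.84 FPKM on day 4 and from 0 to 4.72 FPKM on day 0 (1.14 ± 0.62, adjusted p = 0.317), and Eif2ak3 from 0.0106 to 4.43 FPKM on day 4 and from 0 to 7.31 FPKM on day 0 (-0.39 ± 0.95, adjusted p = 0.856). Ern1 did not pass the filter and reached at most 2.55 FPKM. Atf4, the transcription factor downstream of PERK, averaged 39.0 ± 14.0 FPKM on day 4 and 22.7 ± 17.5 FPKM on day 0 (SD, n = 4 each; 0.95 ± 0.55, adjusted p = 0.351). Ddit3 (CHOP), the cell death factor of this branch, averaged 8.91 ± 3.37 FPKM on day 4 and 16.8 ± 7.97 FPKM on day 0 (-0.81 ± 0.40, adjusted p = 0.263). All 4 day 7 libraries of Ddit3, at 17.0 to 26.9 FPKM, were above those of day 4, at 3.99 to 11.5 FPKM (1.26 ± 0.40, adjusted p = 0.121). Of the exon bases of Ddit3, 10.9% are shared with other entries.

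No gene of these lists was called on day 2 or on day 7 against day 0 (limma), where 0.311% and 0.406% of all genes were called. On day 7 against day 4, 2 of the 123 genes of the 7 lists fell (1.63%, against 1.5% of all genes), and 5 of the 14 of the comparison list (35.7%). Tmed2 fell by 1.24 ± 0.21 (adjusted p = 0.0107) and the signal peptidase subunit Spcs3 by 3.07 ± 0.72 (adjusted p = 0.0462). In the comparison list, Hspa8, Hsp90ab1, Hspa4, Hspd1 and Stip1 fell by 1.22 to 3.21 (adjusted p of 0.0071 to 0.0348). Tmed2, Hsp90ab1 and Hspd1 kept their calls in all 16 fits with 1 library left out. Hspa8 lost its call without day 4 replicate 2 or 4 or day 7 replicate 2 (adjusted p up to 0.0709), Stip1 without day 4 replicate 1, 2 or 4 or day 7 replicate 2 (up to 0.0734), Hspa4 without day 4 replicate 1, 2 or 4 or day 7 replicate 4 (up to 0.127), and Spcs3 in 13 of the 16 (up to 0.131). On day 4 against day 2 the only called gene of these lists was Hspe1 (1.89 ± 0.35, adjusted p = 0.0294), lost without day 2 replicate 2, 3 or 4 or day 4 replicate 2, 3 or 4 (up to 0.112).

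**Figure D4:**
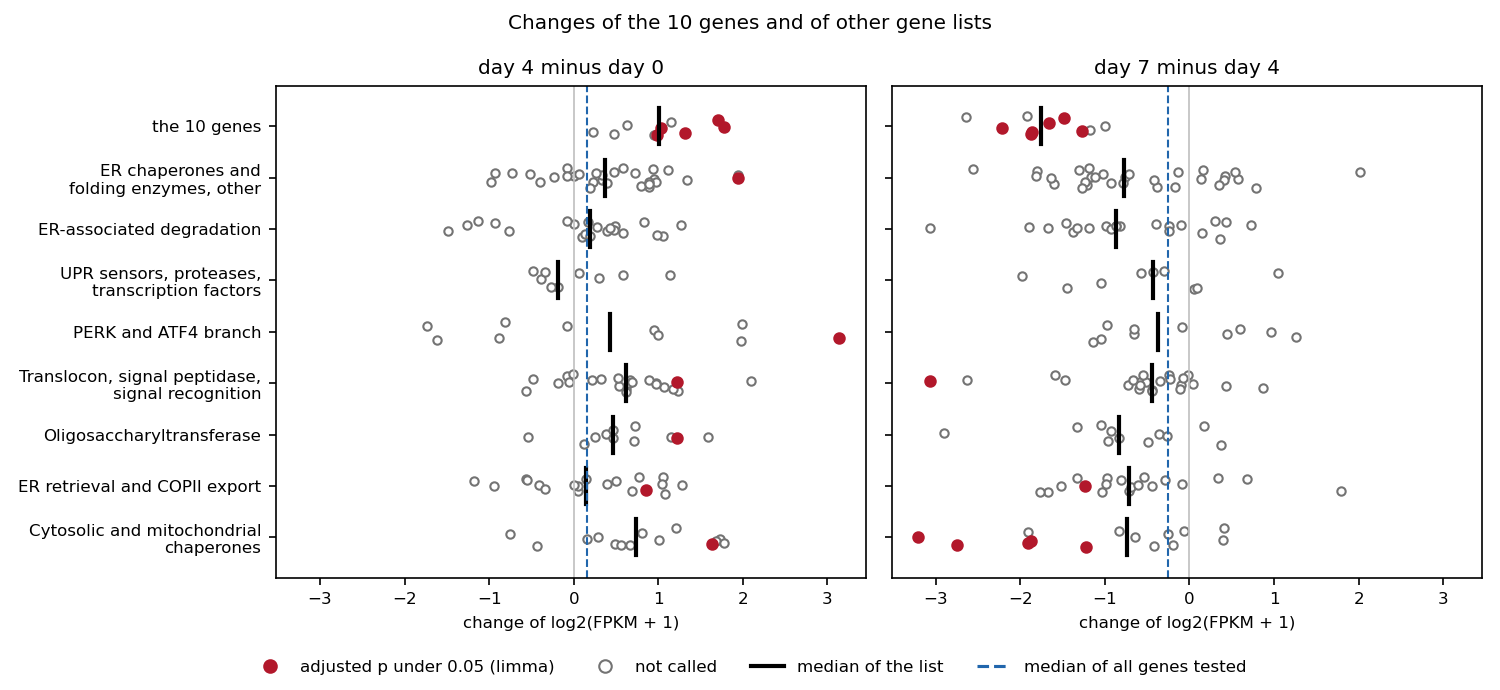
Changes of log2(FPKM + 1) (horizontal axis) of the 10 genes and of the tested genes of 8 lists, on day 4 against day 0 and on day 7 against day 4. Filled points passed an adjusted p of 0.05 (limma), bars are list medians and the dashed line is the median of all genes tested, 0.16 on the left and -0.25 on the right. Medians of the 10 genes are 1.01 and -1.76.

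Levels of markers of other cells differed between the days, and no test was run on them. The largest sums were often those of the 10 rod markers. They were 2207 to 10948 FPKM on day 0, 1548 to 5861 FPKM on day 2, 1845 to 4497 FPKM on day 4 and 3569 to 6058 FPKM on day 7. These ranges overlapped, and in day 0 replicate 1 the rod sum (10948 FPKM) was above that of microglia (3556 FPKM). All 10 bipolar cell markers were found in at least 1 library. Their sum was 0.452 to 55.1 FPKM on day 4, against 64.5 to 401 FPKM on day 0 and 76.7 to 359 FPKM on day 7. On day 2 it was 15.2 to 108 FPKM, which overlapped every other day. The 12 markers of Mueller glia and astrocytes summed to 588 to 6550 FPKM on day 4 and to 2329 to 4182 FPKM on day 0, and most of this was Apoe, which macrophages also express. Without Apoe the other 11 summed to 73.5 to 111 FPKM on day 4 and to 103 to 136 FPKM on day 2, which overlapped. Day 0, at 170.0 to 1964 FPKM, and day 7, at 233 to 1362 FPKM, did not overlap with either. Microglia markers summed to 7300 to 9494 FPKM on day 4, inside the range of day 0 (3556 to 14289 FPKM).

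Markers of other macrophages and blood cells were present too. The 8 markers of border-associated macrophages summed to 37.4 to 255 FPKM on day 0, to 69.7 to 215 FPKM on day 2, to 90.6 to 365 FPKM on day 4 and to 20.4 to 91.8 FPKM on day 7. Much of this was Pf4, without which the sums were 23.0 to 72.7 FPKM on day 4 and 18.5 to 83.4 FPKM on day 0. Lyve1 was at most 1.22 FPKM on day 4 and at least 3.36 FPKM on day 0. In every other marker of this list the ranges of days 0 and 4 overlapped. Mrc1, for one, reached 19.1 FPKM on day 4 and 10.5 FPKM on day 0. The 8 monocyte markers summed to 54.1 to 118 FPKM on day 7 and to 16.5 to 36.4 FPKM on day 4. Of these, Ms4a4c was at 47.7 to 108 FPKM on day 7 and at 3.81 to 16.2 FPKM on day 4, while Ccr2 was at most 0.180 FPKM in any library. The 10 markers of B and plasma cells summed to 258 to 325 FPKM on day 4 and to 165 to 519 FPKM on day 0. Plasma cells are known for high levels of these folding genes. Most of the sum was Ighm, at 149.6 to 580.4 FPKM over the 16 libraries. Over the 16 libraries Cd79b reached 26.1 FPKM, Igkc 16.1 FPKM and Jchain 12.9 FPKM, while Mzb1 was at most 0.257 FPKM and Sdc1 at most 0.0799 FPKM. On day 4 Cd79b reached 15.4 FPKM and Jchain 0.988 FPKM. Igkc was at 11.8 FPKM in day 4 replicate 3 and at 0 in day 4 replicates 1, 2 and 4. The part of these cells in the changes of the 10 genes was not tested.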

How the data were processed

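The 16 libraries came from lysed sorted cells, per the labels' protocols, with amplified cDNA made into Nextera XT libraries. That kit keeps no strand. The authors deposited FPKM per gene. The submitters' processing notes name STAR 2.7.2b, featureCounts 1.6.1 and the build GRCm38.p6 (mm10), and the sources used here do not say how multi-mapped or overlapping reads were treated. FPKM multiplied by length sums to the same total in every library, and 1 read is a fixed step, so depth could be recovered. Between 46.95% and 64.8% of values were whole reads (tolerance 0.02), so no count test was used as the main one.

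The test was limma 3.58.1 under R 4.3.3 (lmFit, then eBayes with trend) on log2(FPKM + 1), a scale that understates changes of low genes. It covered the 14795 genes that reach 1 FPKM in 4 or more libraries. A single fit held all 16 libraries, a mean per day and the batch. Tests were two-sided, with Benjamini-Hochberg adjustment over all genes and a threshold of 0.05, and the script was tested on simulated data. Changes given without a unit are on this log2 scale, ± SE. A group's libraries "do not overlap" where all 4 lie on one side of the other 4 in the deposited FPKM, which was not repeated with other scaling. The members and lists were chosen with earlier results of these data known. Other genes named are up to 3 called genes per list and comparison with day 0 with at least 5 FPKM in the higher group, 11 sensors and targets always named, the 10 genes most like the members, and, named after their values were seen, the other called genes of day 7 against day 4. Markers of 15 cell types were summed per library. Overlap of exons came from the deposited annotation, and near copies (at least 95% identity over at least 200 bases) were searched with blastn 2.17.0+ in GENCODE M21 transcripts, where the members had none beyond the 273 bases that Hsp90b1 shares with 1810014B01Rik. The limit of 3 reads covers counting error only, since amplified reads are not independent molecules.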

Additional observations from a re-analysis of the deposited data

Results flagged for a closer look

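In 40 groups of 4 libraries (10 genes on 4 days), 3 had a library far from the other 3, where chance gives about 2. Pdia3 was at 158 FPKM in day 0 replicate 1, against 259.9 to 266 FPKM in the other day 0 libraries. Pdia6 was at 61.2 FPKM in the same library, against 81.6 to 85.0 FPKM. Pdia4 was at 163 FPKM in day 4 replicate 1, against 114 to 119.5 FPKM in the other day 4 libraries. The cause was not tested in any of them. The rule was applied to FPKM and not to its log2, where a value near 0 weighs more. It therefore passed over day 7 replicate 4, with Pdia4 at 0.127 FPKM (others 47.0 to 61.6) and Xbp1 at 0.0625 FPKM (others 24.4 to 37.0).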

How the results depend on the processing

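None of the 11 called changes of members reversed under the other settings tried. The count of members called on day 4 against day 0 was 1 with no filter on low values, 1 with median-of-ratios factors, 2 with the whole 6-digit code as the batch, 2 in batch 1 alone, 0 in batch 2 alone, 0 with bipolar and Mueller glia markers as covariates, and 3 without day 0 replicate 1 and day 7 replicate 4 together. On day 7 against day 4 it was 2, 1, 2, 0, 0 and 0 under the first 6 of these settings in the same order, and 2 with rod markers as covariates. For the F test it was 1, 0, 2, 0, 0 and 0, and 3 with rod markers. On day 4 against day 2 it was 4 with a mean of at least 5 FPKM, 3 with limma voom and 3 without the pair of libraries. With 1 library left out the counts were 1 to 6 on day 4 against day 0, 2 to 6 on day 7 against day 4, 0 to 1 on day 4 against day 2 and 0 to 6 for the F test. Replicate numbers were not used to pair the samples in the main fit. Of same-numbered pairs 5 of 24 correlated above 0.1 (median 0.04), against 4 of 72 other-numbered pairs (median -0.01). Same-numbered pairs always share a batch, so this does not settle whether the numbers pair the libraries. In all, 6 of 16 libraries correlated best with their own number. With a replicate block the count was 2 on day 4 against day 0 and 2 for the F test.

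Changes that reversed were all uncalled ones. With median-of-ratios factors they were Pdia3 (-0.11) and Calr (-0.11) on day 2 against day 0, Hsp90b1 on day 4 against day 0 (-0.24) and Xbp1 on day 4 against day 2 (-0.28). With the 6-digit code as the batch, Pdia3 (0.29), Sdf2l1 (0.46) and Calr (0.18) turned on day 7 against day 0. In batch 1 alone, Pdia3 (-0.10), Pdia4 (0.11), Dnajb11 (0.35) and Xbp1 (-0.010) turned on day 2 and Manf (0.42), Pdia3 (0.13) and Pdia4 (0.23) on day 7, both against day 0. In batch 2 alone, Hspa5 (0.013) and Calr (-0.085) turned on day 2 and Hsp90b1 (-0.41) on day 4, against day 0, and Hsp90b1 (-0.33), Pdia3 (-0.10) and Xbp1 (-0.17) on day 4 against day 2. On day 2 against day 0, Pdia3 (-0.43), Dnajb11 (0.29), Calr (-0.060) and Xbp1 (-0.10) turned without both day 2 libraries with the title prefix F, Pdia3 (-0.11) and Dnajb11 (0.085) without day 0 replicate 1 and day 7 replicate 4, and Hspa5 (0.042), Pdia3 (-0.18), Pdia4 (0.16), Sdf2l1 (-0.26) and Calr (-0.61) with bipolar and Mueller glia markers. The last setting also turned Hsp90b1 on day 4 against day 0 (-0.12), and rod markers turned Pdia3 on day 2 against day 0 (-0.019) and Xbp1 on day 4 against day 2 (-0.16). With 1 library left out, changes on day 2 against day 0 ran from -0.13 to 0.35 for Pdia3, from -0.38 to 0.10 for Dnajb11, from -0.044 to 0.19 for Calr, from -0.35 to 0.27 for Pdia4 and from -0.18 to 0.11 for Hsp90b1, and on day 4 against day 2 from -0.25 to 0.26 for Xbp1. Of the uncalled pathway genes on day 4 against day 0, Herpud1 turned with median-of-ratios factors (-0.30), in batch 1 alone (-0.13) and with rod markers (-0.084), Dnajc3 with the 6-digit code (1.09), in batch 1 alone (0.33) and with bipolar and Mueller glia markers (1.23), Eif2ak3 in batch 2 alone (0.026), with rod markers (0.14) and with voom (0.25), and Atf4 (-0.010) and Hyou1 (-0.55) in batch 1 alone. With 1 library left out, Eif2ak3 ran from -0.76 to 0.047, Dnajc3 from -0.30 to 0.18, Herpud1 from -0.042 to 0.32 and Hyou1 from -0.096 to 0.71. The cause was not tested in any of these. At these depths 3 reads in a gene of 1 kb correspond to 0.191 to 0.347 FPKM.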
